A study of Mus musculus with 247 samples.

Results

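Untreated wild-type (WT) macrophages were described here by 4 kinds of library that measure the resting state of the same cell line: chromatin accessibility, binding of the transcription factors PU.1 and JunB, and poly(A) RNA. The libraries were chosen by their labels, as those of WT or control cells that received no agent, and they number 11 of the 247 samples of the series. They comprise 3 ATAC-seq libraries, 2 PU.1 ChIP-seq libraries, 2 JunB ChIP-seq libraries and 4 RNA-seq libraries. All come from RAW264.7, a macrophage-like line of BALB/c origin kept in culture. The ATAC-seq libraries carry the label of the control arm of a CRISPR knockout experiment and were seeded as triplicate wells. The PU.1, JunB and RNA libraries are labelled WT with no treatment, and none of these groups received lipopolysaccharide (LPS), the bacterial agent given in the treated arms of the study. No group compared here carries a knockout of GPS2, the corepressor subunit that the study disrupts in its other cells. The report concerns levels, not changes, so no significance test is given: sites and genes are not replicates, and the spread quoted is the spread between libraries.

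PU.1, the product of Spi1, is an ETS-family factor that myeloid cells need, and it can bind its purine-rich GGAA site in closed as well as open chromatin. JunB is a subunit of AP-1, a dimer of Jun-family and Fos-family proteins that binds the palindromic TGANTCA site. Macrophage enhancers often hold sites for both families, and loss of nucleosomes at such enhancers is what ATAC-seq records as accessibility. In the text a promoter site is one annotated within 1 kb of the transcription start site (TSS) of its nearest gene, and a distal site is any other.

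The sequences below are the 121 bases around the centre of the sites that rank highest in each ChIP-seq table, together with PU.1 sites upstream of Il1b, Junb and Spi1 and a JunB site upstream of Ccl2, which were chosen after their values were seen. They are the plus strand of the NCBIM37 (mm9) genome, and capitals mark GAGGAAGT, the PU.1 motif searched, or TGANTCA, the AP-1 motif searched, on the given strand. The PU.1 site with the highest level lies in a GSAT_MM satellite at chr2:98507172-98507436, and the JunB site with the highest level lies in another at chr12:3109805-3110143. Neither window holds a searched motif, and the window at chromosome 12 is also the shared site with the highest combined rank of PU.1 and JunB.
PU.1 rank 1 (satellite): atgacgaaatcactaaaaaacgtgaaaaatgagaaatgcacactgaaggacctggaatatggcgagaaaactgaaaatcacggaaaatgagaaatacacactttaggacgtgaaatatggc
PU.1 rank 2 (10080 bp upstream of Esr1): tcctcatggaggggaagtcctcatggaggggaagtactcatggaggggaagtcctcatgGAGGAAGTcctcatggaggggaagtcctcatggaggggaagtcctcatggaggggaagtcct
PU.1 rank 3 (nearest gene Bcl2l11): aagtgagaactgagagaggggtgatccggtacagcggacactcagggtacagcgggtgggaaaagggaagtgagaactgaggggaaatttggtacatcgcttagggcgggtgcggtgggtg
JunB rank 1 (satellite): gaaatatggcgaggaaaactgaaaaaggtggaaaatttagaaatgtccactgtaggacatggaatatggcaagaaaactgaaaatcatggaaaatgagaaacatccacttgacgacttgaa
JunB rank 2 (10511 bp upstream of Twsg1): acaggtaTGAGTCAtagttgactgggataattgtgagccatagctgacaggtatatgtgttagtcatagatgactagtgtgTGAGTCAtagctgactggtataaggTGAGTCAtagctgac
JunB rank 3 (nearest gene Fmo9): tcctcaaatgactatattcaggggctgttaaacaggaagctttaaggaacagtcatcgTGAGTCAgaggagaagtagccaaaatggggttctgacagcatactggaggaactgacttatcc
Il1b upstream PU.1: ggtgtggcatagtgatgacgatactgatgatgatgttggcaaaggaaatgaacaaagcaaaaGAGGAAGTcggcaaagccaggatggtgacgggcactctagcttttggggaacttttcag
Junb upstream PU.1: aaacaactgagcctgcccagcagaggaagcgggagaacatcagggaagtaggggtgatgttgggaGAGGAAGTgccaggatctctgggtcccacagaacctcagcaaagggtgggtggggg
Spi1 upstream PU.1: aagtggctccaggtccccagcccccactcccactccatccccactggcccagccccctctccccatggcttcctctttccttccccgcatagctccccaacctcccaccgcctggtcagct
Ccl2 upstream JunB: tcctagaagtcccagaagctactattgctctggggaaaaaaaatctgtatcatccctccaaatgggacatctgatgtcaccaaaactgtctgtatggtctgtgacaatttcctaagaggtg

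The second-ranked windows are tandem arrays. The window upstream of Esr1 holds GAGGAAGT once within a run of near copies, and its PU.1 level was 731 and 734 normalised reads in the 2 libraries, where a normalised read is a read per 10000000 mapped reads. The window upstream of Twsg1 holds TGAGTCA 3 times, and its JunB level was 194 and 220 normalised reads. The third JunB window, at chr1:168718111-168718449, had 184 and 219 normalised reads of JunB, overlapped a PU.1 site of 292 and 291 normalised reads, and is the shared site with the highest combined rank outside satellites. The sites upstream of Il1b and Junb each hold GAGGAAGT once within 121 bases, with 155 and 177 normalised PU.1 reads at the Il1b site and 172 and 199 at the Junb site. The third PU.1 window, at 618 and 618 normalised reads, holds neither motif. Nor do those upstream of Spi1 (106 and 83.9) and Ccl2 (78.7 and 94.97 of JunB), so high levels occurred with and without these exact letters. The Spi1 window does hold the shorter AGGAAG on the other strand.

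The ATAC-seq table held 73206 sites with a median width of 622 bp, that of PU.1 52093 sites of 295 bp and that of JunB 58888 sites of 260 bp. Each table merges peaks over several groups, so a site can stand in a table without having been a peak in untreated WT cells. Of the ATAC-seq sites 61497 were peaks of the WT list, of the PU.1 sites 51433 were peaks of at least 1 untreated WT library, and of the JunB sites 31052 were. Mapped reads ranged 4622700 to 7108592 for ATAC-seq, 8699941 to 10105200 for PU.1, 12951996 to 16006472 for JunB and 15195567 to 20258690 for RNA. Spearman correlations between libraries of a kind were at least 0.998 for ATAC-seq, 0.929 for PU.1, 0.889 for JunB and at least 0.995 for RNA. The 2 PU.1 libraries and the 2 JunB libraries differed by less than sampling noise (chi-square per site 0.880 and 0.982), so each pair was counted as 1 sample and no SD is given for it. The RNA libraries differed beyond it (2.69 to 7.27 per gene). The labels do not say whether libraries came from separate cultures, so the spread may be technical.

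Open sites that carried both factors were the most accessible, and those with neither the least. Of the 61474 distal ATAC-seq sites, 28.7% overlapped both a PU.1 and a JunB site, 17.6% PU.1 alone, 17.1% JunB alone and 36.7% neither. Counting error on the share with both was 0.358 percentage points (95% exact binomial half-width). That interval treats sites as independent and leaves out the choice of overlap rule, which is given below. The median ATAC-seq level, on the log2 scale of the deposited table, was 5.00 at distal sites with both, 3.57 with PU.1 alone, 3.44 with JunB alone and 2.58 with neither. The SD of these medians over the 3 libraries was at most 0.00319, far below the differences between classes. The table's values were transformed before deposit, which can narrow the spread between libraries. In each library the order of the 4 classes was the same, with sites carrying both at 5.00, 5.00 and 5.00 and sites with neither at 2.58, 2.59 and 2.59. Not all of these sites were peaks of the WT list: 95.7% of distal sites with both were, but 68.6% of those with neither. With only sites that were peaks in untreated WT cells, the distal difference between both and neither was 2.17, against 2.42 over all sites.

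Promoter sites were more accessible in every class and differed less between classes. Of 11732 promoter ATAC-seq sites, 36.5% carried both factors, 15.4% PU.1 alone, 20.8% JunB alone and 27.3% neither, with median levels of 6.82, 6.30, 6.42 and 5.29. The order thus had JunB alone above PU.1 alone at promoters and below it at distal sites. These classes use all merged JunB sites, and with only the JunB sites that were peaks in untreated WT cells the share with both was 22.9% of distal and 23.0% of promoter sites. The rule for overlap mattered more. When the centres of the sites had to lie within 100 bp, the share with both was 9.87% of distal and 3.81% of promoter sites, and with factor sites of at least 20 normalised reads it was 9.29% and 5.78%. With the rule on centres the promoter difference between both and neither was -0.0858 on the log2 scale, against 1.53 by overlap.

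**Figure D1:**
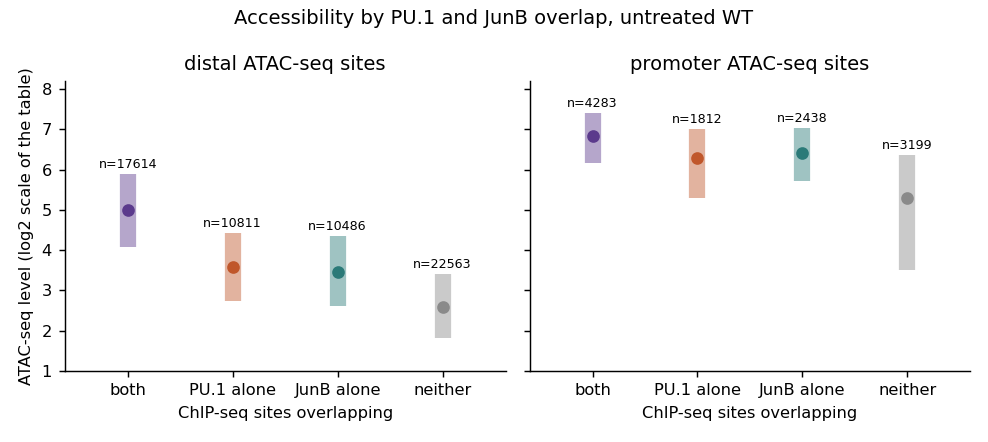
ATAC-seq level (log2 scale of the deposited table) of distal and promoter sites by overlap with PU.1 and JunB sites in untreated WT cells. Points are medians of the mean of 3 libraries and bars span the interquartile range over sites. Distal sites with both factors had a median of 5.00, against 2.58 with neither, and the promoter classes lay closer together.

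Site width also differed between these classes. The median width of distal sites was 788 bp with both factors, 542 bp with PU.1 alone, 549 bp with JunB alone and 403 bp with neither. Among the narrowest of 3 equal groups of distal sites, 210 to 417 bp wide, the medians were 3.17, 2.56, 2.42 and 1.99 in the same class order. Among the widest group, 722 to 5556 bp, they were 5.58, 4.50, 4.37 and 3.66. The class order therefore held within each width range, and with log2 width subtracted the difference between both and neither was 1.49, against 2.42 before.

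Read along accessibility, the share of open sites with a bound factor rose at every step. From the lowest to the highest quintile of distal ATAC-seq level, the share with PU.1 was 14.7%, 28.9%, 42.6%, 62.1% and 82.8%. The share with JunB was 17.4%, 28.6%, 40.9%, 58.8% and 82.9%, and the share with neither was 71.0%, 51.8%, 36.0%, 19.0% and 5.73%. Shares with JunB or with neither count any merged JunB site, also those that were not peaks in untreated WT cells. With only the JunB sites that were peaks there, the share with JunB was 7.40%, 16.7%, 28.4%, 45.9% and 72.7%. Median width over the same quintiles was 295, 421, 551, 699 and 986 bp. At promoters the share with PU.1 was 25.9% in the lowest quintile and 71.5% in the highest, and 10.2% of the most accessible promoter sites had neither factor. The 11412 distal sites that were peaks of the GPS2 knockout list alone had a median of 2.04 in WT cells, against 3.89 for the 50062 distal sites of the WT list. Sites missing from the WT list were not peaks in WT cells, so a lower WT level is built into this choice of sites.

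**Figure D2:**
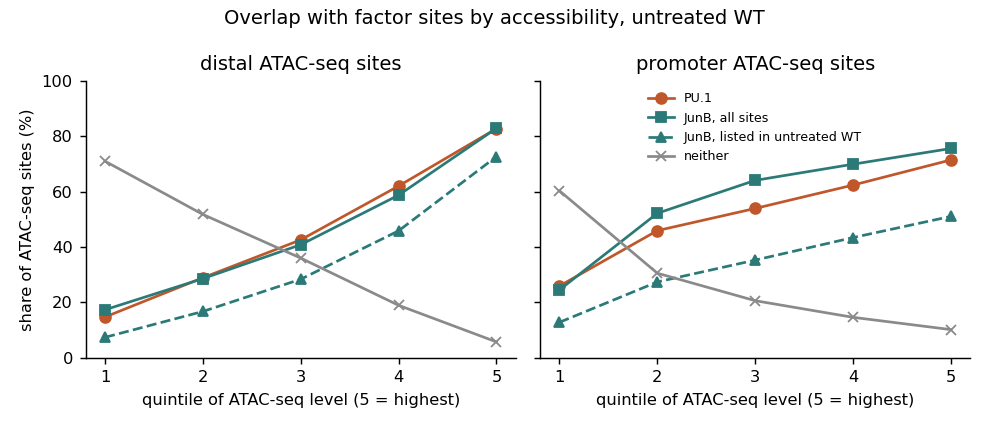
Share of ATAC-seq sites (%) that overlap a PU.1 site, any JunB site, a JunB site that was a peak in untreated WT cells, or neither factor, by quintile of ATAC-seq level in distal and promoter sites. In distal sites the share with PU.1 was 14.7% in the lowest quintile and 82.8% in the highest, while the share with neither was 71.0% and 5.73%.

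Seen from the factors, most bound sites were open. Of the 45400 distal PU.1 sites 69.4% overlapped an ATAC-seq site, and of the 6693 promoter PU.1 sites 94.1% did. Of the JunB sites that were peaks in untreated WT cells, 84.8% of the 27097 distal and 97.2% of the 3955 promoter sites did. Over all merged JunB sites, those of the other groups included, the shares were 63.9% and 92.3%. Intronic and intergenic sites led each table: 44.4% and 40.8% of PU.1 sites, and 45.8% and 39.3% of the JunB sites that were peaks in untreated WT cells. Distal PU.1 and JunB sites that overlapped had their centres a median of 45 bp apart, and 25.4% of them within 20 bp. At promoters the median was 76 bp.

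At open sites each factor stood higher where the other was present. At distal open sites the median PU.1 level was 44.5 and 44.8 normalised reads in the 2 libraries with JunB, against 36.6 and 36.8 without it, a ratio of 1.203 of the means. The median JunB level was 13.1 and 14.7 normalised reads with PU.1, against 8.75 and 9.26 without it, a ratio of 1.52. Off open chromatin, here meaning without overlap with an ATAC-seq site, PU.1 did not follow this order. Distal PU.1 sites there had medians of 20.8 and 21.8 normalised reads with JunB, against 22.8 and 23.0 without it, while distal JunB sites had 5.62 and 6.18 with PU.1, against 3.12 and 3.09 without it. Openness went with a larger ratio than the partner did. Distal PU.1 sites stood 1.76 times higher on ATAC-seq sites than off them (1.78 and 1.75 by library), and distal JunB sites 3.37 times (3.404 and 3.75). Both JunB ratios use all merged JunB sites, of which 31052 of 58888 were peaks here. Among JunB sites that were peaks in untreated WT cells, the ratio on over off open chromatin was 1.78 (1.71 and 1.69 by library) and the ratio with PU.1 over without it at open sites was 1.28 (1.29 and 1.26).

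JunB sites that were peaks in some other group and not in untreated WT cells still held reads here, at low levels. The 23914 such distal sites had a median of 3.35 normalised reads, and 79 of them had none in either library. The 18883 distal sites that were peaks in both untreated WT libraries had a median of 19.3 normalised reads. A difference in level is built into this grouping, because sites were grouped by whether they were peaks in the same libraries. Of the sites that were not peaks 40.2% lay on open chromatin and 19.0% on a PU.1 site, against 90.4% and 56.8% of the sites that were peaks in both libraries. The AP-1 motif was in 51.8% of the sites that were not peaks, against 66.0% of those that were peaks in both libraries and 5.82% of windows 2000 bp away from the distal sites that were peaks. Sites that were peaks in 1 library held the motif in 50.6% and were open in 71.9%, so the sites that were not peaks were close to these in motif and lower in openness.

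Within the distal sites of each factor, the searched motif was more frequent off open chromatin than on it. Off open chromatin means only that no ATAC-seq site overlapped. Accessibility was not measured at such sites, so weak accessibility below the peak call may be among them. GAGGAAGT, searched on both strands within 100 bp of the site centre, was in 34.9% of distal PU.1 sites off open chromatin, in 25.7% of those on open chromatin without JunB and in 20.7% of those on open chromatin with JunB. Windows 2000 bp away held it in 1.35%. TGANTCA was in 78.7% of distal JunB sites (those that were peaks in untreated WT cells) off open chromatin, in 73.6% on open chromatin without PU.1 and in 47.2% on open chromatin with PU.1. At shared open sites 53.0% of PU.1 windows held neither motif, against 72.0% of open PU.1 windows without JunB, where AP-1 letters were rare (2.96%). The search covers only these letters, and with the shorter AGGAAG the difference between off and on open chromatin was 5.72 percentage points, against 11.9 with GAGGAAGT.

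The difference held at matched binding level. In the lowest quintile of distal PU.1 level 33.5% of sites off open chromatin held GAGGAAGT, against 15.2% of sites on it, and in the highest quintile 38.4% against 31.6%. For JunB the lowest quintile had 75.9% off and 42.5% on open chromatin, and the highest 90.8% off and 78.6% on. Few sites of the highest quintiles were off open chromatin, 646 for PU.1 and 87 for JunB. Base composition differed little, with a median GC content of 46.8% in distal PU.1 windows off open chromatin and 48.8% in those on it.

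**Figure D3:**
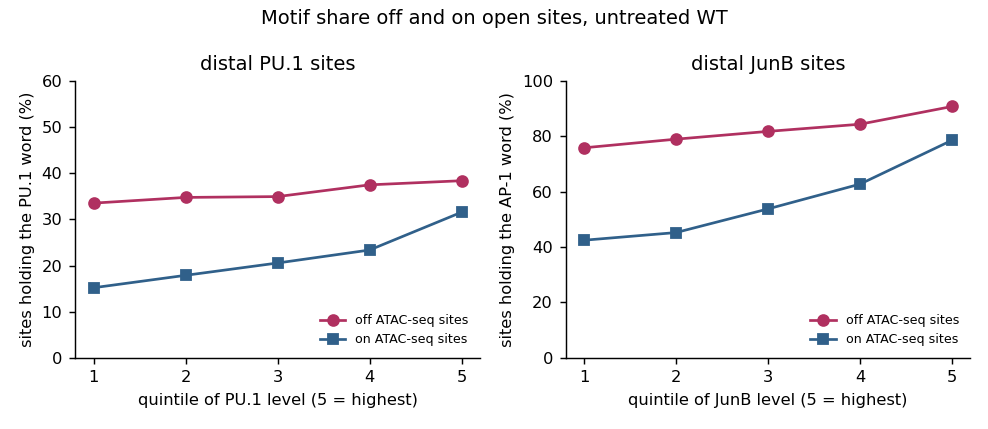
Share of distal PU.1 sites holding GAGGAAGT and of distal JunB sites holding TGANTCA (%), off and on ATAC-seq sites, by quintile of the factor's own level. In all quintiles of both factors the share off open chromatin lay above the share on it, by 38.4% against 31.6% in the highest PU.1 quintile and 90.8% against 78.6% in the highest JunB quintile.

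The sites with the highest levels held a motif most often, with little or no step among the lower quintiles, and promoters differed in which motif they held. From the lowest to the highest quintile, TGANTCA was in 54.0%, 52.4%, 57.4%, 64.0% and 78.8% of distal JunB sites and in 20.9%, 18.1%, 21.9%, 27.8% and 60.1% of promoter JunB sites. GAGGAAGT was in 25.1%, 24.98%, 24.98%, 26.0% and 32.1% of distal PU.1 sites, flat up to the last quintile, and in 10.2%, 10.3%, 11.6%, 15.5% and 27.2% of promoter PU.1 sites. Over the same quintiles the share of distal sites on open chromatin rose from 45.8% to 92.9% for PU.1. For JunB it rose from 65.5% to 98.4%. TGACGTCA, the cyclic AMP response element that Jun dimers with ATF-family partners can bind, was in 5.64% of promoter JunB sites, against 0.894% of distal JunB sites and 0.177% of windows 2000 bp from the promoter sites. Letters of other myeloid factors stood closer to their surroundings: the RUNX word TGTGGT was in 20.9% of distal JunB windows and 16.6% of distal PU.1 windows, against 15.6% and 15.5% of windows 2000 bp away, and the C/EBP word TTGCNNAA in 12.6% and 10.7%, against 7.91% and 7.99%. Promoter JunB windows were richer in GC, at 60.2% against 47.8% in distal ones, which bears on the chance of a CG-containing word and was not tested.

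At the 17614 distal sites with all 3 signals, accessibility went with each factor more closely than the factors went with each other. Across those sites Spearman's correlation was 0.46 between ATAC-seq and PU.1, 0.48 between ATAC-seq and JunB and 0.19 between PU.1 and JunB. The values describe sites of the same libraries, which share sequence and mappability, and ATAC-seq level and site width correlated at 0.63 there. With log2 width subtracted the values that involve ATAC-seq were 0.45 and 0.46, and among peaks of untreated WT cells alone PU.1 and JunB gave 0.11. At the 4283 promoter sites with all 3 signals the 3 values were 0.19, 0.19 and 0.18.

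The loci of known macrophage genes show how these signals were laid out. Spi1, which encodes PU.1 itself, had a promoter ATAC-seq site at chr2:90936440-90938886 of 7.55, 7.49 and 7.51. A PU.1 site beside the TSS, with 56.4 and 57.5 normalised reads, lay within it. Another PU.1 site, 575 bp upstream with 38.6 and 32.2 normalised reads, ended just outside it. A second open site of Spi1, 10247 bp upstream at chr2:90926357-90926820, carried PU.1 at 75.2 and 73.6 and JunB at 33.1 and 39.4 normalised reads. The highest PU.1 site of Spi1, 11954 bp upstream with 106 and 83.9 normalised reads, also lay outside both ATAC-seq sites. RNA of Spi1 stood at 2702, 2640, 2816 and 2486 reads per kb of transcript per 10000000 mapped reads, the unit of all RNA levels here.

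Junb showed a wide open region and no factor site within 1 kb of its TSS by the centre rule. Its promoter ATAC-seq site, chr8:87500093-87505128, stood at 9.27, 9.38 and 9.34. PU.1 sites lay 1165 bp upstream (111 and 141 normalised reads), 1037 bp downstream (102 and 126) and 4054 bp upstream, the last being the window printed above. JunB itself was found 3598 bp upstream of its own gene, with 25.6 and 37.1 normalised reads. Another JunB site, 1012 bp upstream within the promoter ATAC-seq site, had 19.4 and 19.3 but was not a peak in untreated WT cells. RNA of Junb was 739, 829, 719.6 and 698 reads per kb, the highest among the AP-1 subunits.

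Among genes that LPS is known to induce, Tnf, Il1b and Ccl2 each had open chromatin and factor sites without it, as examples and not as a statement on the group. Tnf, the founding inflammatory cytokine of macrophages, had 1 ATAC-seq site at chr17:35337206-35339216 of 7.51, 7.49 and 7.52, with PU.1 at 47.5 and 52.9 and JunB at 18.7 and 16.2 normalised reads next to the TSS. Il1b, the interleukin processed by inflammasomes, had no ATAC-seq site within 1 kb of its TSS but a PU.1 site there of 59.4 and 58.6 normalised reads. Its site with the highest mean accessibility lay 2424 bp upstream at chr2:129198872-129199727 (5.89, 5.87 and 5.93), where the printed PU.1 site and a JunB site of 21.2 and 26.3 normalised reads overlap. The site 9798 bp upstream (5.69, 5.94 and 5.93) did not differ from it beyond the spread. Ccl2, a monocyte-attracting chemokine, had 6 ATAC-seq sites, and the most accessible of them lay 30564 bp upstream (7.18, 7.25 and 7.26), above the promoter site (6.68, 6.69 and 6.62). The highest PU.1 and JunB levels of Ccl2 lay about the same upstream position, 12693 bp for PU.1 (169 and 185 normalised reads) and 12786 bp for JunB (78.7 and 94.97).

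RNA of these genes ranged widely. Tnf had 291, 261, 280.5 and 254 reads per kb, Il1b 116, 105, 99.9 and 97.7, and Ccl2 142, 120.0, 129 and 128. Il6 had 2.08, 2.32, 0.870 and 1.36, which is 2 to 4 reads in each library. Its promoter was open at 4.68 and carried PU.1 at 41.0 normalised reads. That accessibility is in the lowest quintile of promoter ATAC-seq level, where the median RNA was 7.56 reads per kb.

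An open promoter went with RNA. Of 14378 genes with RNA values, 10450 (72.7%) had at least 10 reads per kb, and the median coefficient of variation of genes over the 4 libraries was 5.69% among those. The 10346 genes with a promoter ATAC-seq site had a median of 105, 105, 108 and 107 reads per kb in the 4 libraries, against 5.80, 5.79, 6.01 and 5.99 in the 4032 genes without such a site. On the log2(value + 1) scale the difference was 3.92 for the mean of the 4 libraries. In single libraries the medians were 6.73, 6.73, 6.76 and 6.75, against 2.77, 2.76, 2.81 and 2.80. The SD of 0.00856 over libraries describes those single-library differences, which were all above 3.92. The 4032 genes were mixed. An ATAC-seq site overlapping the 1 kb around the start of the transcript, though assigned to another gene or more than 1 kb away by its centre, was found for 1770 of them, with a median of 77.2 reads per kb. The other 2262 had a median of 0.922 reads per kb, and with the positional rule the difference was 5.66. Among genes with at least 10 reads summed over the 4 libraries it was 1.87.

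Factor sites at open promoters went with a smaller difference. Here a gene counted as carrying a factor when a site of it was assigned to the gene within 1 kb of the TSS, for JunB a site that was a peak in untreated WT cells. Median RNA was 139 reads per kb in the 2069 genes with PU.1 and JunB at an open promoter, 129 in the 2935 with PU.1, 119.7 in the 1187 with JunB and 72.6 in the 4155 with neither. The difference between both and neither was 0.93 on the log2(value + 1) scale (SD over libraries 0.0117), and the 3 classes with a factor had medians of 7.13, 7.02 and 6.92 on that scale. Of the 4155 genes 11.2% were under 1 read per kb, against 4.01% of those with both. A PU.1 site without an ATAC-seq site was found at 527 promoters, whose median RNA was 83.6 reads per kb.

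**Figure D4:**
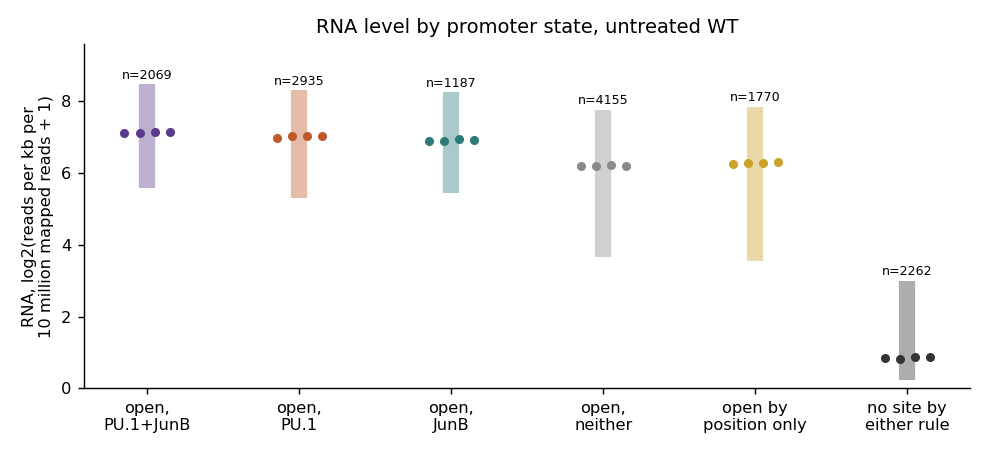
RNA level, log2(reads per kb per 10000000 mapped reads + 1), of genes by the state of their promoter in untreated WT cells. The 4 points are the medians in the 4 libraries and bars span the interquartile range over genes. Genes with an open promoter had medians between 6.19 and 7.14, and genes with no site by either rule stayed between 0.83 and 0.88.

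Promoter accessibility related to RNA mainly at its low end. From the lowest to the highest quintile of promoter ATAC-seq level the median RNA was 7.56, 100.5, 142, 146 and 178 reads per kb, and the share of genes with at least 10 reads per kb was 46.4%, 87.1%, 93.6%, 94.97% and 94.7%. Across the 10346 genes Spearman's correlation was 0.40, and across the 8624 of them with at least 10 reads per kb it was 0.19. Promoter PU.1 level and RNA gave 0.11 over 5531 genes, and promoter JunB level and RNA gave 0.016 over 3530. These are descriptions across genes, which share the libraries and the annotation.

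The number of distal shared sites, ATAC-seq sites that overlap PU.1 and any merged JunB site, told little about the level of the nearest gene. Median RNA was 66.7 reads per kb in the 8171 genes with no distal site carrying both factors, 73.1 with 1, 81.1 with 2, 82.8 with 3 to 4, 84.2 with 5 to 9 and 72.4 in the 81 genes with 10 or more. Among genes with an open promoter the values were 103, 111, 107, 117, 103 and 89.1. The summed distal PU.1 level and RNA gave a Spearman correlation of 0.078 over 9603 genes, 0.026 among genes with at least 10 reads per kb and 0.13 when RNA was not divided by length. The difference between 5 or more sites and none was 0.32 on the log2 scale, with an SD over libraries of 0.0506. It was 0.08 among genes with at least 10 reads summed over libraries, 0.71 when distal sites were limited to 50 kb, and 1.05 when RNA was not divided by transcript length.

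The 5 genes with the most distal shared sites made the point individually. Maf, a transcription factor of resident macrophages, had 23 of them and 37 distal PU.1 sites, and its RNA was 5.01, 4.52, 5.15 and 4.65 reads per kb. Runx1, a blood-lineage factor, had 19 and RNA of 113, 124, 136 and 126 reads per kb. Lpp, Rreb1 and Tns3 had 18 each, with mean RNA of 5.01 ± 0.917, 61.1 ± 5.55 and 272 ± 21.96 reads per kb (SD, n = 4). Sites were assigned by nearest gene alone, so a long gene or a gene in a sparse region can gather more of them.

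The 10 most abundant RNAs per kb came from genes of several kinds. Lyz2 led with 59031, 50831, 54100.0 and 55334 reads per kb, ahead of Lyz1 with 52758, 47251, 47680.3 and 49631. Both encode lysozyme and are near-identical neighbours on chromosome 10, so their reads may be split between them and each level is uncertain. Fth1, the heavy chain of ferritin, had 49103 ± 3758, S100a4 42374 ± 3303 and Actb, cytoplasmic actin, 29985 ± 818 (SD, n = 4). Pkm, Eef1a1, Ldha, Rpl4 and Aldoa, which serve glycolysis or translation, completed the 10, between 19405 and 23998. The 10 genes with the most reads took 5.24% of reads in the table.

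Some open promoters had almost no RNA. Of genes with a promoter ATAC-seq site 774 had under 1 read per kb, 12 of them histone cluster genes. The 5 most accessible of them were Hist2h2ac (9.34), Hist1h3a (8.94), Gm26710 (8.32), Hist1h2be (8.28) and Grk4 (8.27), whose RNA was between 0.264 and 0.941 reads per kb. Of 50 histone cluster genes in the table, 45 were under 10 reads per kb, whereas 72.7% of all genes had at least 10. Transcripts of replication-dependent histone genes lack a poly(A) tail as a rule, so levels from poly(A) RNA are a poor measure of them.

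In the other direction, the 5 genes with the most RNA and no promoter ATAC-seq site by nearest gene were Rpl4, Rpl41, Rpl12, Fau and Rps27rt, all of which encode ribosomal proteins or their precursors. Their RNA was between 7581 and 19593 reads per kb. All but Fau had an ATAC-seq site by position, at 5.78 for Rpl4, 7.89 for Rpl41, 7.05 for Rpl12 and 7.04 for Rps27rt. Their absence from the open class is thus a matter of the annotation for 4 of the 5.

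The highest signals of each table were partly repeats. The ATAC-seq site with the highest level, chr17:39980057-39985612 in the 45S ribosomal RNA gene Rn45s, stood at 13.2, 13.1 and 13.1, and a GSAT_MM satellite at chr2:98506402-98507470 stood at 11.7, 11.5 and 11.6. That satellite holds the PU.1 site of rank 1, with 1458 and 1566 normalised reads. The second-highest ATAC-seq site, chr1:24619318-24620369, is annotated as intergenic and stood at 12.7, 13.04 and 12.5, and the fourth, chr11:3092801-3093854 at a CpG annotation beside Sfi1, at 10.6, 10.6 and 10.6. A JunB satellite site at chr12:3109805-3110143 had 451 and 481 normalised reads, with PU.1 at 411 and 480. Reads from many repeat copies can fall on the few copies in the genome build. The fifth ATAC-seq site overlaps Gps2, the gene the study disrupts elsewhere, at chr11:69727411-69729768 with 10.0, 9.59 and 9.28. Sap130, Zfp687, Sp1 and Rbm15 promoters followed, between 9.38 and 9.61, with a further satellite site at 9.46 among them. Among JunB sites, the highest promoter site lay in the first intron of S100a3, with 159 and 172 normalised reads and PU.1 at 86.6.

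The gene lists described next were chosen with earlier results of these data known, and their medians stand beside that of all 14378 genes, which was 71.6 reads per kb, with 72.0% of promoters open and 38.5% carrying PU.1 within 1 kb.

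Macrophage identity genes were high and bound by PU.1. Of 25 macrophage markers 24 were in the table, 21 had at least 10 reads per kb, the median was 641 ± 22.02 reads per kb (SD over 4 libraries), 21 had an open promoter and 20 carried PU.1 there. Tyrobp, the DAP12 signalling adaptor, had 8294, 8291, 7999 and 7737 reads per kb. Cd68, a lysosomal glycoprotein, had 7991, 7397, 7524 and 7572 reads per kb, with promoter PU.1 at 219 normalised reads. Csf1r, the receptor for the growth factor that macrophages need, had 5216, 5181, 5411 and 5415 reads per kb, with promoter PU.1 at 106 and a second PU.1 site 3117 bp downstream of the TSS at 246 and 244 normalised reads. Fcer1g, the common Fc receptor chain, had 4363 ± 166 reads per kb and the highest promoter PU.1 of the list, 314 normalised reads. Receptors of the list that mark specialised or recruited macrophages spread widely: Cx3cr1, the fractalkine receptor, had 1727 ± 73.8 reads per kb and Siglec1, a sialic acid-binding receptor, 27.05, whereas Mrc1, the mannose receptor, had 1.80 reads per kb, Mertk, an engulfment receptor, 0.316, and Ccr2, the receptor for Ccl2, 6.11.

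Lineage transcription factors were moderate in RNA and rich in distal sites. All 16 were in the table, all had an open promoter and 14 had at least 10 reads per kb, with a median of 139.9 ± 7.34. They had a median of 4.5 distal sites with both factors, against 0 over all genes. Cebpb and Irf5, factors of inflammatory gene expression, followed Spi1 at 864 and 861 reads per kb. Irf8, a partner of PU.1, had 302, 327, 324 and 320.3, and Cebpa, a myeloid differentiation factor, 216, 223, 223 and 196. The lipid-sensing receptors were low, with Nr1h3 (LXR alpha) at 22.8 and Pparg at 6.81 reads per kb.

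Both factors studied belong to families of which several members had RNA. Of 16 ETS genes 14 were in the table and 12 had at least 10 reads per kb. Spi1 at 2661 reads per kb stood far above Ets2 (427), Fli1 (263) and Elf1 (251), and the close relative of PU.1 Spib was at 0.0530 with Ets1 at 0.0515. Of 12 AP-1 genes 11 were in the table and 9 had at least 10 reads per kb. Junb led at 747, followed by Jund (425), Jdp2 (332), Atf3 (256) and Fos (249), with Jun at 145. Fosb (0.939) was under 1 read per kb and Batf had no read in any library. The PU.1 and JunB libraries are labelled with single members, and cross-reaction of the antibodies with relatives was not tested. The motif searched does not tell relatives apart.

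Genes of the GPS2 corepressor complex had RNA. Hdac3, its deacetylase, had 437 reads per kb, Gps2 374 (396, 378, 366 and 356 in the 4 libraries), Tbl1x 262, Ncor1, a scaffold of the complex, 164 and Tbl1xr1 122.

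Genes of LPS sensing had RNA. Of 21 genes 20 were in the table and 19 had at least 10 reads per kb, against 72.7% of all genes, with a median of 109 ± 4.80 and PU.1 at 15 promoters. Cd14, the LPS co-receptor, had 7702, 7208, 7203 and 7095 reads per kb, far above Tlr4, the receptor itself, with 119.6, 131, 142 and 140.0. The Tlr4 promoter carried PU.1 at 307 normalised reads. Tlr2 had 717 and the adaptor Myd88 585 reads per kb.

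LPS-inducible inflammatory genes had low to moderate RNA, with promoters open as often as those of all genes. Of 27 genes 25 were in the table, 20 had at least 10 reads per kb and the median was 42.0 ± 2.58. An open promoter was found for 18 of the 25 (72.0%), against 72.0% of all genes. PU.1 lay at 19 of the 25 promoters and JunB at 11, as shares 76.0% and 44.0%, against 38.5% and 24.6% of all genes. Ccl3, a chemokine, had 1783, 1671, 1727 and 1636 reads per kb, and Nfkbia, the inhibitor of NF-kappaB, 777, 746, 699 and 716. Nos2, inducible nitric oxide synthase, had 17.8, Il10 4.07, Csf2 0.803 and Ifnb1 0.406 reads per kb.

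Interferon-stimulated genes had RNA without PU.1 at most promoters. All 19 were in the table, 16 had at least 10 reads per kb with a median of 60.2 ± 3.63, 17 promoters were open and 4 carried PU.1. Irf7, which drives the interferon response, had 588, 594, 620.3 and 573 reads per kb and no PU.1 site within 1 kb. Oasl1 had 297, Usp18 275 and Isg15 191, while Mx1 had 2.05 reads per kb.

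Lysosomal genes had a high median but spanned 43.1 (Atp6v0d2) to 6682 (Ctsd) reads per kb. All 18 had at least 10 reads per kb, with a median of 2087 ± 35.0, led by the proteases Ctsd (6682), Ctsz (5486), Ctsb (4838) and Ctss (4836). Ctsk, an osteoclast protease, was low at 70.7. The antigen-presentation list was split: Cd74, the invariant chain, had 2526 ± 181 reads per kb and H2-DMa 41.5, while Ciita, the master regulator of the class II genes, had 0.0569, H2-Ab1 0.247 and H2-DMb1 0.543. The Ciita promoter was open at 4.62, in the lowest quintile of promoter ATAC-seq level, with PU.1 at 74.2 normalised reads.

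Housekeeping genes had a median of 7909 ± 300.04 reads per kb, and Gapdh was the exception at 28.3, 19.1, 26.2 and 11.3 reads per kb. Its promoter was open at 8.37, above that of Actb at 8.02. Gapdh has many processed pseudogenes. Whether reads from it went unassigned was not tested, and the value is uncertain.

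Markers of other cells were low. For lymphocytes 4 of 15 genes were in the table, with a summed level of 22.7 to 24.0 reads per kb over the libraries, of which Lck made up 20.8 to 21.3. For granulocytes and dendritic cells 4 of 11 were in the table, summing to 14.3 to 17.1, with S100a8 at 0.806. For erythroid cells and megakaryocytes 4 of 8 were in the table, summing to 32.0 to 50.1, mostly Pf4 (33.4). For fibroblasts and epithelium 3 of 12 summed to 5.96 to 7.72, with Col1a1 at 0.0560, and for other organs 3 of 10 summed to 3.57 to 4.77, with Tnnt2 at 0. The other genes of these lists were not analysed here. Open promoters did not require RNA: Gata3, a lymphocyte factor, had a promoter ATAC-seq level of 7.12 and 1.52 reads per kb.

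**Figure D5:**
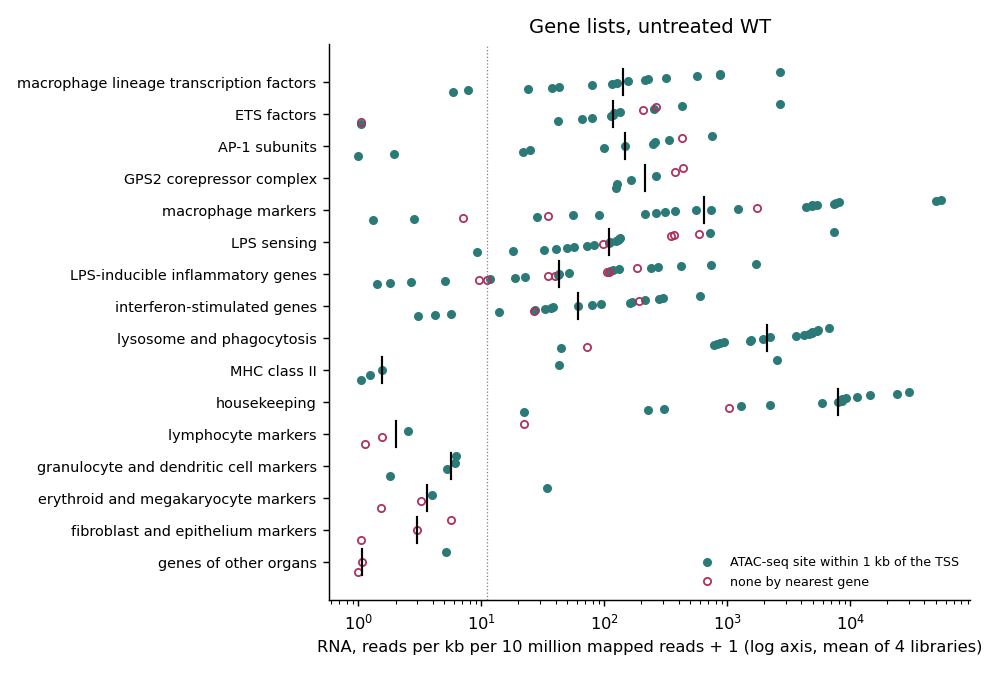
RNA level (reads per kb per 10000000 mapped reads + 1, log axis, mean of 4 libraries) of each member of the gene lists in untreated WT cells. Filled points have an ATAC-seq site within 1 kb of the TSS by nearest gene and open points have none, black bars are list medians and the dotted line marks 10 reads per kb. Housekeeping, lysosome and macrophage marker medians (7909, 2087 and 641) lie above the other lists, and the lists of other cell types lie mostly left of the line.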

How the data were processed

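Accessibility, PU.1 and JunB occupancy and poly(A) RNA were measured in untreated WT RAW264.7 cells. The tables were made with HOMER on mm9, per the file headers. Bowtie2, BWA, HISAT2, MACS2, DESeq2 and edgeR are also named, without roles, per the submitters' processing notes. PU.1, JunB and RNA values were deposited as reads per 10000000 mapped reads, with decimal commas. RNA values of low read number all came out as whole reads, within 0.05, when divided by the value of 1 read. Higher values were not checked in this way. ATAC-seq values were deposited on a log2 scale after a transformation by the authors whose form is not given in the sources used here. HOMER's gene assignment, distance to the TSS and merged peak list were kept, and 11 columns were used.

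RNA was divided by transcript length in kb and averaged over 4 libraries; log2 values had 1 added. Sites overlapped at 1 bp or more. Motifs were searched in 201 bp around site centres on both strands, in the NCBIM37 sequence, beside windows 2000 bp away. Tables were joined with pandas 2.3.3 under Python 3.11.15, rank correlations came from scipy 1.17.1, array steps from numpy 2.4.6 and plots from matplotlib 3.10.9; the code was tested on simulated data. Intervals cover counting error only.

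The members and gene lists were chosen with earlier results of these data known. Genes and sites are named as list members, as the 10 highest in RNA per kb or in a site table, or as the 5 highest in promoter ATAC-seq level under 1 read per kb, in RNA without a promoter site, or in number of distal shared sites. Alternatives varied overlap, promoter distance, width, pseudocount, length, filters, motif and libraries. Printed sequences were read from that genome at the sites of the deposited tables. A member of the corepressor list is not reported here.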

Additional observations from a re-analysis of the deposited data

Results flagged for a closer look

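Of 186 genes named or listed here with at least 3 reads in each RNA library, 12 had 1 library whose gap to the nearest other exceeded the 95% critical value of Dixon's ratio for 4 samples. Chance flags about 1 in 20 groups. Replicate 1 was the library concerned for 9 of the 12. It was higher than the others for Fth1 (54697 reads per kb, the others at most 47848), Ldha (21548, at most 20066), Rpl4 (20918.5, at most 19196), Rpl12 (9353, at most 7912), Fau (9221, at most 7355), Csf3 (15.2, at most 8.74) and Klf1 (4.81, at most 1.40). It was lower for Atp6v0d2 (37.1, the others at least 44.7) and Rreb1 (52.9, at least 62.8). Replicate 4 was lower for Cebpb (761, the others at least 889) and higher for Adgre1 (279.7, at most 255). Replicate 3 was higher for Atf3 (260.3, at most 254).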

How the results depend on the processing

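Of 143 recomputed values, 66 moved by less than the spread between libraries or the counting interval, 76 moved by more and 1 changed sign. That spread is small for values taken over so many sites, and for PU.1 and JunB, whose libraries count as 1 sample each, it is the technical spread between the 2 libraries. No paired analysis was possible because the libraries of different assays share a number only and no test was made.

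Values are given in a fixed order: distal share with both, distal share with neither, promoter share with both (%), distal then promoter ATAC-seq difference of both minus neither (log2), PU.1 ratio, JunB ratio. With centres within 100 bp they were 9.87%, 65.5%, 3.81%, 1.45, -0.0858, 1.19 and 1.25, and the rank correlation for ATAC-seq with PU.1, ATAC-seq with JunB and PU.1 with JunB was 0.48, 0.47 and 0.14. With overlap of 50% of the shorter site they were 28.0%, 38.0%, 35.5%, 2.44, 1.50, 1.204 and 1.44, and the first and last rank correlations were 0.45 and 0.18. With sites of at least 20 normalised reads they were 9.29%, 56.4%, 5.78%, 2.97, 1.12, 1.31 and 1.12. With sites that were peaks in untreated WT cells alone, an alternative chosen after seeing the data, they were 27.2%, 35.8%, 23.4%, 2.17, 1.11, 1.27 and 1.25, with a rank correlation of 0.43, 0.44 and 0.11. A promoter limit of 2 kb gave a promoter share of 35.4% and a promoter difference of 1.98. Subtracting log2 width gave 1.49 and 0.93, with a rank correlation of 0.45 and 0.46, and levels per kb of site gave ratios of 1.195 and 1.33.

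The RNA differences are open minus no site, both minus neither, and 5 or more distal sites minus none. They were 3.82 and 1.19 with 2 kb promoters, 4.10 with a pseudocount of 0.1, 1.87, 0.71 and 0.0775 with genes of at least 10 reads summed over libraries, and 5.21 (open minus no site) and 1.05 (distal) without length. They were 0.71 (distal) with distal sites within 50 kb and 4.04, 0.86 and 0.27 with peaks of untreated WT cells alone. By transcript position, also chosen after seeing the data, the first and the second were 5.66 and 0.96. Spearman's correlation of RNA with promoter ATAC-seq was 0.43 without length, 0.19 for genes of at least 10 reads per kb, 0.38 with peaks of untreated WT cells and 0.36 by position. That with the distal PU.1 sum was 0.13 without length and 0.026 for genes of at least 10 reads per kb. With AGGAAG the motif difference was 5.72 percentage points. The causes were not tested.

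Leaving out 1 library at a time gave 2.41 to 2.42 (distal ATAC-seq), 1.52 to 1.53 (promoter), 1.216 to 1.219 (PU.1 ratio), 1.50 to 1.58 (JunB ratio), 0.453 to 0.458, 0.465 to 0.476 and 0.187 to 0.189 (rank correlation between ATAC-seq and PU.1, ATAC-seq and JunB, PU.1 and JunB), and 3.92 to 3.97, 0.91 to 0.93 and 0.32 to 0.35 (RNA differences). Spearman's correlation of RNA was 0.398 to 0.400 with promoter ATAC-seq and 0.0769 to 0.0788 with the distal PU.1 sum, and list medians were 633 to 649, 42.1 to 42.6 and 7811 to 7978 reads per kb for macrophage markers, LPS-inducible and housekeeping genes.

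Depth limits the low end: a gene under 1 read per kb often rests on a few reads, and so does a JunB site of 3 normalised reads.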
